A study of Gnathonemus petersii with 18 samples.

Results

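The genes of the cytosolic ribosomal proteins were examined in 3 tissues of Gnathonemus petersii, the elephantnose fish, which lives in fresh water and finds its way with weak electric pulses. Members were taken by name, as every gene whose symbol is that of a large-subunit protein (rpl, rplp) or a small-subunit protein (rps, rpsa) with its number. The rule used no measured value and found 67 of the 28031 genes in the deposited table, 41 of the large and 26 of the small subunit. RNA sequencing libraries came from the trigeminal ganglion, the spinal cord and the cerebellum, with 6 libraries of each and 18 in all, and the labels name 6 individual fish as their source. The labels give no treatment, strain, age or sex, and tissue is the only difference between the groups that they record. By its title the series belongs to work on the early origin of touch acuity in vertebrates.

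The ribosome makes every protein of the cell from messenger RNA. Its large subunit forms the peptide bonds and releases the growing chain through a tunnel, and its small subunit holds the messenger RNA and reads it. Each subunit holds about a single copy of most of its proteins. In vertebrates most of the messages for them are short, abundant and start with a pyrimidine tract through which the mTOR kinase controls their translation.

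Symbols covered much of the ribosome but not all of it. Of 79 textbook ribosomal proteins, 65 were found by symbol. Of these, 64 were among the members, and the name rule left out the other. For 14 the symbol was not found, 6 of the small subunit, such as rps6 and rps14, and 8 of the large, such as rpl8 and rplp2, and they were not analysed here. Genes listed under a locus identifier alone could not be matched to a protein. The other 3 members, rpl3l, rpl22l1 and rpl7l1, are paralogues of standard ribosomal proteins. All 67 members passed the filter on low counts that left 20691 genes to be tested.

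Total counts per library ran from 10413024 to 14183733 in the ganglion, from 10346375 to 13379441 in the spinal cord and from 10953416 to 17587837 in the cerebellum. Between 170603 and 467516 of a library's counts fell on the members. Markers of each tissue, summed as CPM (counts scaled to a common library size), were highest in that tissue. Ganglion markers reached 707 to 1050 CPM in the ganglion against 176 to 251 in the spinal cord and 121 to 149 in the cerebellum, with 6 of the 7 found (of 9 listed) highest in the ganglion. All 8 spinal cord markers found were highest in the spinal cord and 8 of 9 cerebellar markers in the cerebellum. Ganglion replicate 5 stood apart from the rest: 1 gene took 15.1% of its TPM (abundance corrected for gene length by the authors), and its TMM scaling factor was 0.611 against 0.814 to 1.06 in the other ganglion libraries. Values without it, and without replicates 2 and 5 together, are given where they change a call of a gene described.

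The members took a larger share of the ganglion's counts than of the other tissues' counts. The lowest, median and highest share was 2.29, 2.85 and 3.98% in the ganglion, 1.39, 1.66 and 2.09% in spinal cord libraries and 1.56, 1.83 and 2.06% in the cerebellum. Every ganglion library lay above every library of the other tissues, and the spinal cord and the cerebellum overlapped. Ganglion replicates 1 and 6 were high, at 3.98 and 3.93%, and the other 4 lay between 2.29 and 2.98%. By TPM the lowest, median and highest share was 5.92, 7.77 and 10.6% in the ganglion, 4.43, 5.13 and 6.34% in spinal cord libraries and 5.27, 6.19 and 6.85% in the cerebellum. On that scale the ganglion overlapped both other tissues, through replicate 5 at 5.92% and replicate 2 at 6.69%. The TPM share also moves with a few very abundant genes, the top gene taking 7.02 to 11.2% of TPM in the spinal cord and 1.13 to 1.40% in the cerebellum. With genes above 10000 TPM in any library left out, a step added after the data were seen, the share was 7.60 to 11.4% in ganglion libraries, 5.22 to 7.44% in the spinal cord and 5.46 to 7.15% in the cerebellum, and the ganglion again lay above both.

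The large and the small subunit moved together. Large-subunit members took 3.65 to 6.58% of TPM in the ganglion, 2.78 to 3.96% in the spinal cord and 3.31 to 4.30% in the cerebellum. For small-subunit members the ranges were 2.27 to 4.03% in the ganglion, 1.66 to 2.39% in the spinal cord and 1.95 to 2.55% in the cerebellum. Summed large-subunit TPM over summed small-subunit TPM was 1.67 ± 0.0883 in the ganglion, 1.69 ± 0.0225 in the spinal cord and 1.66 ± 0.0662 in the cerebellum (SD, n = 6 each). The 3 means differed by less than the SD within the ganglion or the cerebellum, and the libraries farthest from the rest were ganglion replicate 2 at 1.84 and cerebellum replicate 1 at 1.54. The ratio reflects which members carry a symbol as well as their levels.

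**Figure D1:**
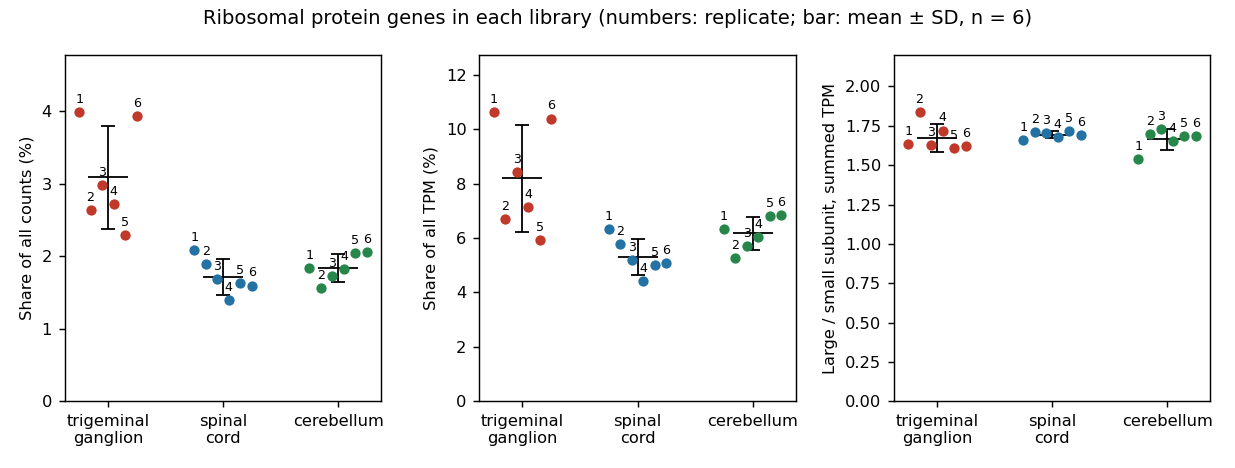
Share of all counts taken by the 67 ribosomal protein genes (left, percent), share of TPM (middle, percent) and ratio of summed large-subunit to summed small-subunit TPM (right) in each library of the trigeminal ganglion, spinal cord and cerebellum. Points carry the replicate number, and bars give the mean and SD of 6 libraries. The ganglion shares of counts, 2.29 to 3.98%, lie above all others, the TPM shares of replicates 5 and 2 overlap the other tissues, and the subunit ratio is near 1.7 in each tissue.

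Levels differed widely between members, although most standard ribosomal proteins are needed in like amounts. The members also include the paralogues rpl3l and rpl7l1, both among the 5 least abundant. On the TPM scale, which allows genes of different length to be compared, the median member averaged 735 TPM over the 18 libraries, 64 of 67 members exceeded 100 TPM and 23 exceeded 1000 TPM. The 5 most abundant were rpl7a at 4581 TPM, rpl36 at 4289, rps18 at 3873, rps28 at 2448 and rplp1 at 2116, and together they took 26.4% of all member TPM. The 5 least abundant were rpsa at 266 TPM, rps4x at 191, rpl7l1 at 28.9, rpl3l at 14.7 and rps15a at 9.36. Near-identical copies can split or lose reads, and the sources used here do not say how the authors counted such reads, so a low level of a standard protein such as rps15a is uncertain as a measure of that protein's message.

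Within each tissue the median member varied less than the median gene. The median coefficient of variation of CPM over 6 libraries was 20.8% for members against 38.3% for all tested genes in the ganglion, 13.6 against 21.3% in the spinal cord and 10.7 against 20.7% in the cerebellum. Members and other genes were not matched for abundance in these values. Much of the spread was common to the members of a library. Spinal cord replicate 1 was the highest of its tissue for 57 members and replicate 4 the lowest for 57. In the cerebellum replicate 5 was highest for 34 and replicate 2 lowest for 45. Ganglion libraries had no single extreme: replicates 1, 5 and 6 were highest for 24, 21 and 21 members and replicate 4 lowest for 29. A scaling factor moves all members of a library alike, so these ranks depend on it. Ganglion replicate 5, with a factor of 0.611, had the lowest ganglion share of counts for the members, at 2.29%.

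In the ganglion against the cerebellum, 42 of 67 members rose and none fell. A member is said to rise or fall here at a Benjamini-Hochberg adjusted p under 0.05 in the edgeR quasi-likelihood test and a change of at least 2-fold. Of all genes tested, 29.6% were higher and 22.3% lower by that rule. A set of 892 short and abundant genes without the members, defined with gene length below, had 401 (45.0%) higher and 48 lower. The 42 comprised 25 of 41 large-subunit and 17 of 26 small-subunit members, with log2 fold changes of 1.01 to 2.66. No member was lower at an unadjusted p under 0.05 either, and DESeq2 also gave 42 higher and 0 lower. By the adjusted p alone 66 members were higher, against 37.6% of all genes, and rpl7l1 was the exception. The median member differed by 1.08 on the log2 scale and the median gene by 0.07. By CPM every ganglion library exceeded every cerebellum library for 62 members, which held for 24.1% of all genes. The exceptions were rpl3l, rpl22l1, rpl7l1, rps23 and rpl15. On the TPM scale some of the 62 overlapped, such as rpl11, at 386 to 1027 TPM in the ganglion and 510 to 630 in the cerebellum.

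Against the spinal cord the ganglion showed 36 members higher and none lower, where 14.5% of all genes were higher and 17.3% lower. Of the same 892 short and abundant genes, 375 (42.0%) were higher and 38 lower. The 36 members were 22 of the large and 14 of the small subunit, with log2 fold changes of 1.01 to 1.58. The count of 0 lower was the same at an unadjusted p under 0.05 and by DESeq2, which gave 40 higher. By the adjusted p alone 66 were higher, against 25.1% of all genes, all but rpl3l. The median member differed by 1.01 on the log2 scale and the median gene by -0.01. In 61 members the libraries did not overlap by CPM, which held for 13.4% of all genes. By TPM some of these overlapped too, such as rpl11, at 386 to 1027 TPM in the ganglion and 376 to 565 in the spinal cord. Both ganglion comparisons use the same 6 ganglion libraries, so their values are set side by side and are not separate evidence.

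Spinal cord and cerebellum differed little in these genes. Rises of at least 2-fold were seen in 2 members, rpl3l and rps15a, where 28.9% of all genes were higher, and none fell, where 16.3% were lower. By the adjusted p alone edgeR gave 5 higher (rpl3l, rps15a, rplp0, rpl17 and rps26) and 1 lower (rpl7l1), where all genes gave 35.7% higher and 29.3% lower. At an unadjusted p under 0.05 it gave 6 higher and 2 lower, and DESeq2 by its adjusted p gave 5 higher and 4 lower, both without a share over all genes. The balance depended on the scale. By the adjusted p, limma on log2(TPM + 1) gave 3 higher and 17 lower, where all genes gave 29.6% higher and 36.6% lower. By the same rule edgeR with a correction for gene length gave 5 higher and 9 lower, where all genes gave 34.4% higher and 31.7% lower. The median member differed by 0.06 on the log2 scale and the median gene by 0.08. Libraries did not overlap for 4 members higher in the spinal cord (rpl3l, rplp0, rpl17 and rps26), which held for 27.3% of all genes, and for rpl7l1, lower there, which held for 24.6%.

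**Figure D2:**
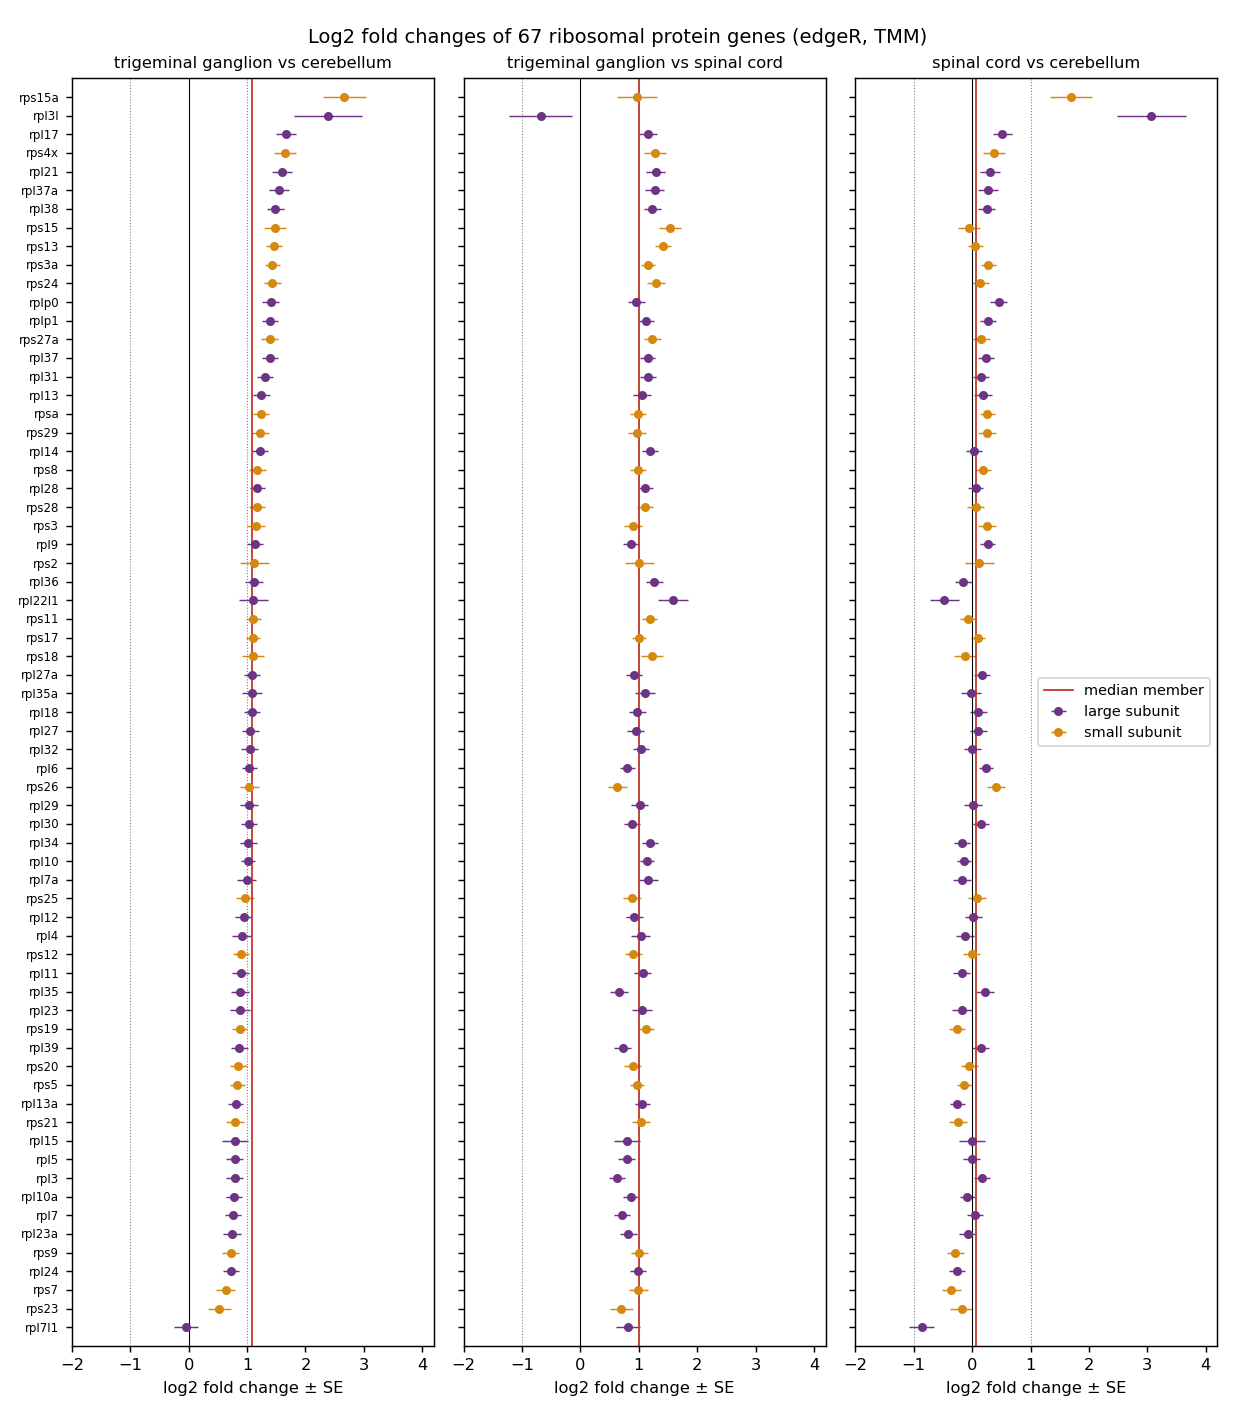
Log2 fold change with approximate SE of each of the 67 members for ganglion over cerebellum, ganglion over spinal cord and spinal cord over cerebellum, from the edgeR fit to 18 libraries. Large-subunit members are purple and small-subunit members orange, the red line is the median member and dotted lines mark 2-fold. Members cluster near the median lines at 1.08, 1.01 and 0.06, and rps15a, rpl3l and rpl7l1 lie farthest from them.

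The subunits had like median changes. In the ganglion over the cerebellum the median log2 fold change was 1.04 for large-subunit and 1.12 for small-subunit members. In the ganglion over the spinal cord it was 1.03 for large-subunit and 1.01 for small-subunit members, and in the spinal cord over the cerebellum 0.05 for large-subunit and 0.07 for small-subunit members.

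Among the large-subunit members, the stalk proteins recruit the factors that drive elongation. The stalk base protein gene rplp0 had 419, 590 and 790 CPM as lowest, median and highest in the ganglion, 270, 287 and 331 in spinal cord libraries and 186, 211 and 252 in the cerebellum. No tissue overlapped another. Its log2 fold change was 1.41 ± 0.145 for ganglion over cerebellum (approximate SE, edgeR adjusted p = 5.36e-08), 0.95 ± 0.144 for ganglion over spinal cord (adjusted p = 1.54e-05) and 0.45 ± 0.143 for spinal cord over cerebellum (adjusted p = 0.00918), and only the first of these reached 2-fold. Its partner rplp1 had 826, 985 and 1166 CPM in the ganglion, 386, 448 and 523 in spinal cord libraries and 289, 386 and 457 in the cerebellum, so that the ganglion stood above the other tissues, which overlapped. It rose in the ganglion by 1.40 ± 0.142 on the log2 scale over the cerebellum (adjusted p = 4.26e-08) and by 1.13 ± 0.141 over the spinal cord (adjusted p = 1.57e-06).

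The proteins of rpl5 and rpl11 enter the large subunit with the 5S RNA, and in mammals free copies bind the p53 regulator MDM2. For rpl5 the lowest, median and highest CPM were 474, 581 and 737 in the ganglion, 241, 350 and 411 in spinal cord libraries and 307, 335 and 398 in the cerebellum. For rpl11 they were 241, 277 and 394 in the ganglion, 122, 135 and 183 in spinal cord libraries and 144, 166 and 174 in the cerebellum. In both genes all ganglion libraries were above the rest by CPM, though not by TPM. Ganglion over cerebellum was 0.79 ± 0.146 for rpl5 (edgeR adjusted p = 8.09e-05) and 0.89 ± 0.146 for rpl11 (adjusted p = 2.04e-05), both short of 2-fold. Ganglion over spinal cord was 0.80 ± 0.146 for rpl5 (adjusted p = 0.000135), short of 2-fold, and 1.07 ± 0.146 for rpl11 (adjusted p = 5.04e-06), which rose.

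The late-joining protein of rpl10 is needed for the large subunit to pair with the small one. It had 380, 454 and 540 CPM in the ganglion, 173, 198 and 240 in spinal cord libraries and 199, 225 and 245 in the cerebellum, and its ganglion libraries stood apart. It rose by 1.01 ± 0.12 on the log2 scale in the ganglion over the cerebellum (edgeR adjusted p = 3.62e-07) and by 1.15 ± 0.121 over the spinal cord (adjusted p = 1.68e-07). The value over the cerebellum sits at the threshold and came to 0.96 to 1.00 without ganglion replicate 5 or without replicates 1, 2 or 5 of all tissues, and to 0.93 without ganglion replicates 2 and 5. Among the members with the smallest ganglion changes were rpl24, whose protein bridges the subunits, at 0.72 ± 0.139 over the cerebellum (adjusted p = 0.000127), and rpl3, whose protein reaches the peptide-bond centre, at 0.62 ± 0.14 over the spinal cord (adjusted p = 0.000976). The exit-tunnel gene rpl35 had 0.66 ± 0.151 over the spinal cord (adjusted p = 0.00108). None of these 3 genes reached 2-fold in either ganglion comparison.

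The most abundant members, rpl7a and rpl36, lay near the median member. Not every abundant member did: rps23 averaged 1988 TPM and is described below as lower than the median member over the cerebellum. The lowest, median and highest CPM of rpl7a were 2156, 3277 and 4581 in the ganglion, 1287, 1407 and 1765 in spinal cord libraries and 1527, 1674 and 1848 in the cerebellum. Its ganglion libraries were above all others by counts, with log2 fold changes of 0.99 ± 0.158 over the cerebellum (edgeR adjusted p = 1.41e-05), just short of 2-fold, and 1.17 ± 0.158 over the spinal cord (adjusted p = 4.48e-06). On the TPM scale the same gene averaged 5735 ± 1043 TPM in the ganglion, 3470 ± 446 in the spinal cord and 4537 ± 367 in the cerebellum (SD, n = 6 each). For rpl36 the CPM were 1329, 1886 and 2302 in the ganglion, 602, 710 and 942 in spinal cord libraries and 724, 829 and 925 in the cerebellum, again without overlap between the ganglion and the others. It rose by 1.12 ± 0.151 over the cerebellum (adjusted p = 1.99e-06) and by 1.27 ± 0.152 over the spinal cord (adjusted p = 9.13e-07).

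Larger ganglion rises over the cerebellum were seen in rpl17, whose protein lines the exit tunnel, and in rpl21. The exit-tunnel gene rpl17 had 267, 401 and 590 CPM in the ganglion, 148, 173 and 208 in spinal cord libraries and 108, 124 and 142 in the cerebellum, with no overlap between any pair of tissues. Its log2 fold change was 1.67 ± 0.166 for ganglion over cerebellum (edgeR adjusted p = 3.34e-08), 1.15 ± 0.164 for ganglion over spinal cord (adjusted p = 7.83e-06) and 0.51 ± 0.162 for spinal cord over cerebellum (adjusted p = 0.00941). For rpl21 the CPM were 157, 226 and 356 in the ganglion, 81.4, 92.9 and 106 in spinal cord libraries and 65.3, 74.4 and 92.1 in the cerebellum. The ganglion was above both other tissues, which overlapped. Its rises were 1.59 ± 0.17 over the cerebellum (adjusted p = 8.23e-08) and 1.29 ± 0.168 over the spinal cord (adjusted p = 2.82e-06).

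Several small-subunit members lie along the path of the messenger RNA. At the entry of the message channel, rps3 had 277, 330 and 434 CPM in the ganglion, 140, 181 and 206 in spinal cord libraries and 118, 146 and 194 in the cerebellum. It rose by 1.16 ± 0.157 over the cerebellum (edgeR adjusted p = 2.14e-06) and differed from the spinal cord by 0.90 ± 0.156 (adjusted p = 7.75e-05), short of 2-fold. Its neighbour rps9 differed by 0.72 ± 0.148 from the cerebellum (adjusted p = 0.000238) and rose by 1.01 ± 0.149 over the spinal cord (adjusted p = 1.25e-05). That last value was at 1.00 and no longer past the threshold with the replicate number as a block. Near the message exit, rps28 rose by 1.17 ± 0.142 over the cerebellum (adjusted p = 4.82e-07) and by 1.11 ± 0.141 over the spinal cord (adjusted p = 2.13e-06), with 602, 701 and 947 CPM in the ganglion, 308, 326 and 429 in spinal cord libraries and 265, 349 and 369 in the cerebellum. Also at the exit, rps26 had 88.1, 136 and 182 CPM in the ganglion, 79.4, 83.5 and 102 in spinal cord libraries and 54.5, 64.3 and 76.7 in the cerebellum, so that the ganglion overlapped the spinal cord and both stood above the cerebellum. It rose over the cerebellum by 1.04 ± 0.162 (adjusted p = 1.14e-05), which came to 0.92 and 0.97 without replicates 1 and 6, and differed from the spinal cord by 0.63 ± 0.161 (adjusted p = 0.0028).

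Members with a further known activity were in the same range. The laminin receptor homologue rpsa had 208, 269 and 309 CPM in the ganglion, 115, 126 and 167 in spinal cord libraries and 95.5, 106 and 141 in the cerebellum, and the ganglion did not overlap the others. It rose by 1.24 ± 0.137 over the cerebellum (edgeR adjusted p = 1.35e-07) and differed from the spinal cord by 0.98 ± 0.136 (adjusted p = 6.16e-06). The ubiquitin fusion gene rps27a had 350, 453 and 522 CPM in the ganglion, 141, 189 and 239 in spinal cord libraries and 142, 169 and 195 in the cerebellum. Its ganglion libraries too were above all others. It rose by 1.39 ± 0.147 over the cerebellum (adjusted p = 7.24e-08) and by 1.23 ± 0.146 over the spinal cord (adjusted p = 7.88e-07).

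The largest small-subunit rises over the spinal cord were in rps15, rps13 and rps24. The lowest, median and highest CPM of rps15, whose protein sits in the head of the subunit, were 197, 259 and 524 in the ganglion, 86.4, 101 and 116 in spinal cord libraries and 91.5, 107 and 115 in the cerebellum. Its rise was 1.53 ± 0.193 over the spinal cord (edgeR adjusted p = 1.75e-06) and 1.48 ± 0.193 over the cerebellum (adjusted p = 1.22e-06), with ganglion replicate 5 the highest library. The bridge protein gene rps13 had 121, 143 and 185 CPM in the ganglion, 51.2, 54.7 and 63.4 in spinal cord libraries and 43.9, 57.4 and 61.2 in the cerebellum, and rose by 1.41 ± 0.134 over the spinal cord (adjusted p = 3.97e-08) and 1.46 ± 0.134 over the cerebellum (adjusted p = 1.02e-08). All ganglion libraries of rps15 and rps13 were above all others. For rps24, a Diamond-Blackfan anaemia gene in humans, the CPM were 242, 312 and 458 in the ganglion, 113, 128 and 159 in spinal cord libraries and 98.7, 118 and 135 in the cerebellum. It rose by 1.30 ± 0.149 over the spinal cord (adjusted p = 5.4e-07) and by 1.43 ± 0.149 over the cerebellum (adjusted p = 6.31e-08). Abundant rps18, with 1357, 1826 and 3037 CPM in the ganglion, 655, 789 and 1057 in spinal cord libraries and 735, 890 and 1014 in the cerebellum, rose by 1.22 ± 0.184 over the spinal cord (adjusted p = 1.5e-05) and by 1.10 ± 0.183 over the cerebellum (adjusted p = 2.46e-05), the second value coming to 0.92 without ganglion replicate 5. Ganglion over cerebellum was 0.63 ± 0.159 (adjusted p = 0.00148) for rps7 and 0.52 ± 0.198 (adjusted p = 0.0236) for rps23, whose protein lies at the decoding centre.

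Gene length moved with the ganglion result. The members are short: 62 of 67 fell in the shortest 10% of all tested genes, with a median length percentile of 1.86, and the exceptions were rpl4, rpl3l, rpl9, rpl7l1 and rpl3. Genes of the shortest 10% that are not members, 2007 in number, had a median log2 fold change of 0.72 in the ganglion over the cerebellum, 0.65 over the spinal cord and 0.04 in the spinal cord over the cerebellum. In the longest 10%, 2070 genes, these medians were -0.31, -0.23 and -0.03. Short genes other than members took 14.4 to 18.05% of counts in the ganglion, 9.14 to 10.999% in the spinal cord and 8.74 to 9.82% in the cerebellum, and the ganglion did not overlap the others. The median member lay above the median of these short genes by 0.36 on the log2 scale in each ganglion comparison and by 0.02 in the spinal cord over the cerebellum. Genes that were both in the shortest 20% and in the most abundant 20%, 892 without the members, came closer, with medians of 0.90 over the cerebellum and 0.87 over the spinal cord against the members' 1.08 and 1.01. The part of RNA quality, fragment size or library preparation in this trend was not tested.

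**Figure D3:**
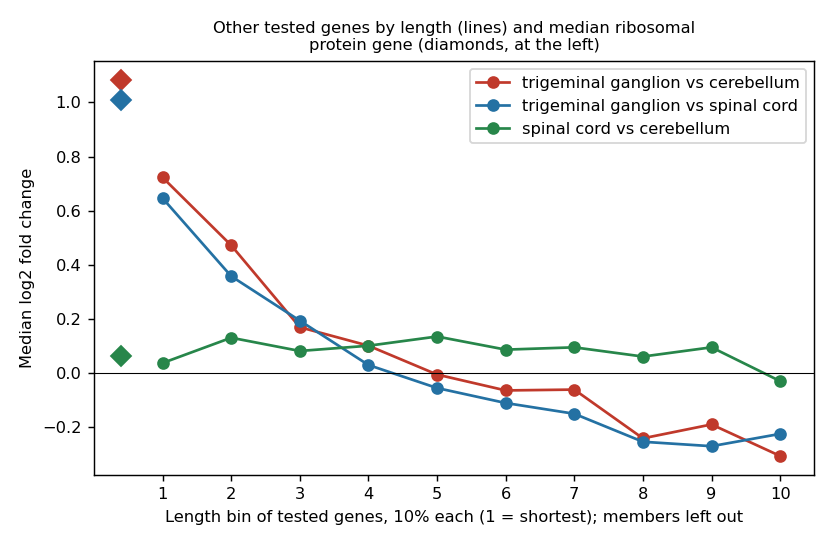
Median log2 fold change of tested genes that are not members, in bins of 10% by gene length from shortest to longest, for ganglion over cerebellum, ganglion over spinal cord and spinal cord over cerebellum (lines), with the median of the 67 members as diamonds. The ganglion lines fall from 0.72 and 0.65 at the shortest bin to -0.31 and -0.23 at the longest, and the members' medians of 1.08 and 1.01 lie above the short end.

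With the length trend of non-member genes removed from each library, a step added after the data were seen, the members' ganglion excess was smaller and mostly under 2-fold. The median log2 fold change came to 0.44 over the cerebellum and 0.45 over the spinal cord, where the median gene was at 0.07 and 0.09. Over the cerebellum 4 members stayed past 2-fold, where 28.9% of all genes were higher: rps15a at 2.06, rpl3l at 2.05, rpl9 at 1.08 and rpl17 at 1.03. Over the spinal cord 0 members did, where 14.5% of all genes were higher. At an unadjusted p under 0.05, 52 members were higher and 0 lower over the spinal cord, a rule whose share over all genes is not given here. By the edgeR adjusted p alone 44 members were higher over the cerebellum, where 37.2% of all genes were, and 45 over the spinal cord, where 27.1% were. In the spinal cord over the cerebellum rpl3l was at 2.91, rps15a at 1.69 and rpl7l1 at -1.02. On log2(TPM + 1), tested with limma, the median member was 0.39 over the cerebellum and 0.58 over the spinal cord. The median gene was at -0.52 and -0.37, so members stood 0.91 and 0.95 above it, against 1.01 and 1.02 by counts. Against the median of short genes other than members the gap was smaller. It was 0.36 in each ganglion comparison by counts, and 0.39 and 0.42 on the TPM scale. On that scale 1 member passed 2-fold over the cerebellum, where 15.2% of all genes were higher, and 2 were higher and 1 lower in the ganglion over the spinal cord, where all genes gave 5.92% higher and 21.4% lower.

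A second fit scaled each library by its own members, so that a log2 fold change is read against the median member, with 0.5 as the least change called at an edgeR adjusted p under 0.05. Most members kept their place: 60 lay within 0.5 of the median in the ganglion over the cerebellum, 64 in the ganglion over the spinal cord and 63 in the spinal cord over the cerebellum. On this scale 5 members were higher and 2 lower in the ganglion over the cerebellum, where 19.1% of all genes were higher and 56.5% lower. In the ganglion over the spinal cord 2 were higher and 1 lower, where 5.79% of all genes were higher and 62.8% lower. With the replicate number as a block, which treats libraries of the same number as paired, only the 1 lower member remained past the threshold. In the spinal cord over the cerebellum 2 were higher and 1 lower, where all genes gave 33.2% higher and 27.8% lower.

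The members higher than the median member in the ganglion over the cerebellum were rps15a at 1.62 (edgeR adjusted p = 0.000171), rpl3l at 1.24 (adjusted p = 0.0309), rpl17 at 0.61 (adjusted p = 0.000922), rps4x at 0.60 (adjusted p = 0.00517) and rpl21 at 0.55 (adjusted p = 0.00395). The lower ones were rpl7l1 at -1.09 (adjusted p = 0.000154) and rps23 at -0.55 (adjusted p = 0.00975). In the ganglion over the spinal cord they were rpl22l1 at 0.61 (adjusted p = 0.03), rps15 at 0.54 (adjusted p = 0.0143) and rpl3l at -1.80 (adjusted p = 0.00296). Several of these rest on ganglion replicates 2 and 5. Without both, rpl17 was at 0.37, rpl21 at 0.27, rps4x at 0.26 and rps23 at -0.30 over the cerebellum, and rpl22l1 at 0.01 and rps15 at 0.15 over the spinal cord, all under the threshold. The calls of rps15a and rpl7l1 against the cerebellum, and of rpl3l in the spinal cord comparisons, held under every alternative run with that fit.

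Without these libraries some 2-fold calls of the first fit were also lost: over the spinal cord rpl17 came to 0.94, rps4x to 0.97 and rpl7a to 0.95, and over the cerebellum rpl36 to 1.00 (just under the threshold), rpl10 to 0.93 and rps18 to 0.92. Others were gained, with rpl11 at 1.01 and rpl35 at 1.05 over the cerebellum and rpl24 at 1.05 and rps7 at 1.12 over the spinal cord. Without ganglion replicate 5 alone rps9 came to 0.99 over the spinal cord and rpl22l1 to 0.86 over the cerebellum. The same step gained rpl24 at 1.01 and rps7 at 1.03 over the spinal cord.

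Ganglion replicates 2 and 5 differed from the other 4 in the make-up of their ribosomal messages. Of the 67 members, 21 in replicate 5 and 11 in replicate 2 lay more than 0.5 on the log2 scale from the median of the other ganglion libraries in their share of member TPM, against 0 to 4 in every other library of the 3 tissues. The paralogue gene rpl22l1 took 3.21 and 3.27% of member TPM in replicates 2 and 5, against 1.33 to 1.45% in the other ganglion libraries, 1.24 to 1.50% in the spinal cord and 1.62 to 2.41% in the cerebellum. In the other direction, rps23 took 1.46 and 1.41% there, against 2.78 to 3.24% in the other ganglion libraries, 2.92 to 3.24% in the spinal cord and 3.18 to 4.03% in the cerebellum. The large-subunit gene rpl15 took 1.32 and 0.664%, against 2.12 to 2.50% in the other ganglion libraries. For rps15 the share was 1.09 and 1.46%, against 0.652 to 0.780%.

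The same 2 ganglion libraries were also set apart in other gene lists. Summed proteasome genes were at 9762 and 10566 CPM in replicates 2 and 5, against 4879 to 6405 in the other ganglion libraries. Mitochondrial ribosomal protein genes summed to 4865 and 5818 CPM, against 2527 to 3301. Replicate 5 had the highest ganglion sums of Schwann cell markers, at 22547 CPM, and of leukocyte markers, at 12793 CPM. The part of these differences in the members' shares was not tested.

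**Figure D4:**
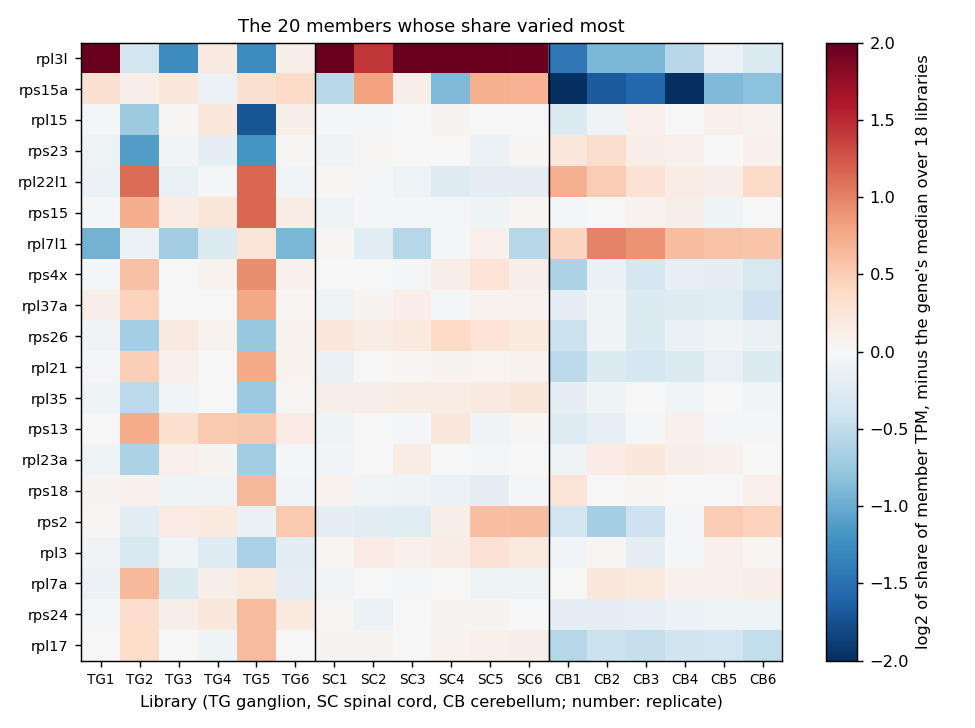
Log2 share of member TPM, relative to each gene's median over 18 libraries, for the 20 members whose share varied most (rows), in the 6 libraries of the trigeminal ganglion, spinal cord and cerebellum (columns). Colours are limited to plus and minus 2. Ganglion replicates 2 and 5 stand out by high rpl22l1 and rps15 and low rps23 and rpl15, and rpl3l is high in ganglion replicate 1 and the spinal cord.

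Among the paralogues, rpl3l, whose mammalian counterpart replaces rpl3 in striated muscle, had the least even levels. It had 43.8 CPM in ganglion replicate 1 and 2.39 to 8.59 in the other ganglion libraries, 24.9, 22.9 and 26.8 CPM in spinal cord replicates 1, 3 and 5 and 10.2, 14.4 and 12.3 in replicates 2, 4 and 6, and 1.25 to 3.38 in the cerebellum. All spinal cord libraries were above all cerebellum libraries, and the ganglion overlapped both. Its log2 fold change was 2.39 ± 0.583 for ganglion over cerebellum (edgeR adjusted p = 0.00117), -0.68 ± 0.541 for ganglion over spinal cord (adjusted p = 0.311) and 3.07 ± 0.593 for spinal cord over cerebellum (adjusted p = 0.000158). Without replicate 1 of each tissue the ganglion differed from the cerebellum by 1.09 and was lower than the spinal cord by -1.73, past the threshold. Against the median member the ganglion over cerebellum value then came to 0.11.

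The muscle actin gene acta1 moved with rpl3l. Another muscle marker, ryr1, was instead highest in the cerebellum. Of 13 muscle genes 3 were found by symbol, acta1, actn3 and ryr1, and together they summed to 44.1 to 3436 CPM in the ganglion, 116 to 1356 in the spinal cord and 16.9 to 22.6 in the cerebellum. The skeletal muscle actin gene acta1 had 3252 CPM in ganglion replicate 1 and 3.65 to 133 in the other ganglion libraries, 1295, 1119 and 1172 CPM in spinal cord replicates 1, 3 and 5 and 106, 295 and 109 in replicates 2, 4 and 6, and 0 to 0.863 in the cerebellum. For actn3 the values were 181 CPM in ganglion replicate 1 and 29.6 to 53.4 in the other ganglion libraries. In spinal cord replicates 1, 3 and 5 actn3 had 58.4, 61.6 and 115 CPM, and in replicates 2, 4 and 6 it had 17.3, 20.7 and 4.45. The calcium channel gene ryr1 had 0.590 to 2.78 CPM in the ganglion, 1.41 to 4.04 in the spinal cord and 7.84 to 10.4 in the cerebellum. Within the ganglion ryr1 was highest in replicate 1. Within the spinal cord it was highest in replicates 3 and 5, with replicate 1 at 2.00 below replicate 6 at 2.27. Of the 3 markers 2 were higher and 1 was lower over the cerebellum in each of the other tissues. All genes gave 29.6% higher and 22.3% lower in the ganglion and 28.9% and 16.3% in the spinal cord. The 4 libraries highest in acta1 were the 4 highest in rpl3l. Without those 4 libraries rpl3l was at 1.20 for ganglion over cerebellum, -1.27 for ganglion over spinal cord and 2.48 for spinal cord over cerebellum. In bulk tissue such as this, fewer cells of a type and less RNA per cell cannot be told apart.

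**Figure D5:**
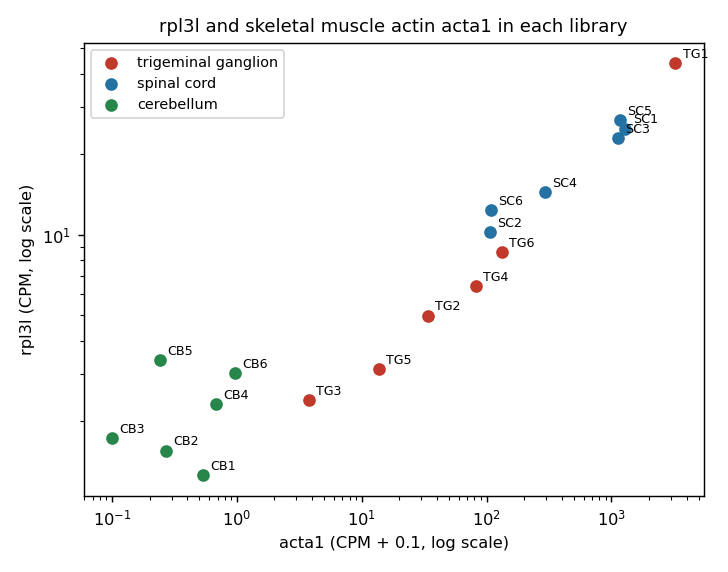
CPM of rpl3l (vertical, log scale) against CPM of the muscle actin gene acta1 (horizontal, log scale, 0.1 added) in 18 libraries of the trigeminal ganglion, spinal cord and cerebellum. Ganglion replicate 1 at 43.8 CPM of rpl3l and spinal cord replicates 1, 3 and 5 at 22.9 to 26.8 are the highest on both axes. The cerebellum libraries are lowest in acta1 and overlap the ganglion in rpl3l.

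Other paralogues and variants took different courses. The gene rpl7l1, a paralogue of rpl7 whose yeast counterpart acts in assembly of the large subunit, had 18.8, 23.5 and 48.2 CPM as lowest, median and highest in the ganglion, 11.3, 16.0 and 21.6 in spinal cord libraries and 24.3, 28.9 and 32.2 in the cerebellum. It was the member closest to no change in the ganglion over the cerebellum, at -0.05 ± 0.211 (edgeR adjusted p = 0.85), and it differed by 0.82 ± 0.213 between ganglion and spinal cord (adjusted p = 0.00343) and by -0.86 ± 0.213 between spinal cord and cerebellum (adjusted p = 0.00149), both short of 2-fold. The spinal cord lay wholly below the cerebellum, and the ganglion overlapped both. For rpl22l1 the CPM were 287, 415 and 937 in the ganglion, 131, 163 and 227 in spinal cord libraries and 209, 228 and 306 in the cerebellum, with the ganglion above the spinal cord and overlapping the cerebellum. It rose by 1.58 ± 0.254 over the spinal cord (adjusted p = 3.24e-05) and by 1.11 ± 0.251 over the cerebellum (adjusted p = 0.000615), the value over the cerebellum being 0.55 without ganglion replicates 2 and 5.

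The gene rps4x, which in mammals is X-linked, rose by 1.65 ± 0.189 in the ganglion over the cerebellum (edgeR adjusted p = 2.25e-07) and by 1.28 ± 0.187 over the spinal cord (adjusted p = 1.13e-05), with 116, 165 and 292 CPM in the ganglion, 62.1, 73.7 and 80.9 in spinal cord libraries and 43.8, 56.8 and 64.9 in the cerebellum. Its ganglion libraries did not overlap the others. The small-subunit gene rps15a had the widest difference of any member in the ganglion over the cerebellum. Its CPM were 5.36, 8.51 and 10.7 in the ganglion, 1.56, 4.48 and 6.84 in spinal cord libraries and 0.736, 1.04 and 2.16 in the cerebellum, with the ganglion above the cerebellum and the spinal cord between, overlapping both. Its log2 fold change was 2.66 ± 0.368 for ganglion over cerebellum (adjusted p = 2.59e-06), 0.96 ± 0.343 for ganglion over spinal cord (adjusted p = 0.0249), which came to 1.05 and past 2-fold with the replicate block, and 1.70 ± 0.361 for spinal cord over cerebellum (adjusted p = 0.000399). These values rest on 955 counts over 18 libraries.

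Genes that build, regulate or work with the ribosome were set beside the members, without a test of the difference. The lists were made with earlier results of these data known. By the same 2-fold rule all genes gave 29.6% higher and 22.3% lower in the ganglion over the cerebellum. The shares were 14.5% and 17.3% in the ganglion over the spinal cord and 28.9% and 16.3% in the spinal cord over the cerebellum. Of 45 tested genes for ribosomal RNA processing and assembly, 1 was higher and 4 were lower in the ganglion over the cerebellum, with a median log2 fold change of -0.13, and 2 were higher over the spinal cord, with a median of 0.31. The anti-association factor gene eif6 rose by 1.20 ± 0.272 over the cerebellum (edgeR adjusted p = 0.000602) and by 1.60 ± 0.275 over the spinal cord (adjusted p = 6.87e-05), and nob1, the nuclease of small-subunit maturation, fell by 1.66 ± 0.194 against the cerebellum (adjusted p = 2.83e-07). In the spinal cord over the cerebellum the list had 1 higher and 7 lower, among them nop56, a core protein of RNA-methylating particles, at -1.27 ± 0.137 (adjusted p = 1.41e-07). The abundant nucleolin gene ncl was at 0.07 in the ganglion over the cerebellum, 0.08 in the ganglion over the spinal cord and -0.01 in the spinal cord over the cerebellum. Of 11 tested RNA polymerase I genes, 1 was higher and 2 were lower in the ganglion over the cerebellum, and 5 were lower in the spinal cord over the cerebellum. The initiation factor subunit taf1c was at -2.27 ± 0.337 in the ganglion over the cerebellum (adjusted p = 6.26e-06) and the shared subunit polr1d at 1.20 ± 0.142 (adjusted p = 3.21e-07).

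Translation factors follow. The elongation list also named tpt1 and the release factor genes gspt1 and etf1. Of its 8 tested genes 2 were higher in the ganglion over the cerebellum, with a median of 0.93. Over the spinal cord only tpt1 was higher, with a median of 0.55 for the list. The called genes were tpt1, encoding the translationally controlled tumour protein, at 1.82 ± 0.19 over the cerebellum (edgeR adjusted p = 6.23e-08) and 1.17 ± 0.187 over the spinal cord (adjusted p = 3.1e-05), and the exchange factor subunit eef1d at 1.16 ± 0.123 over the cerebellum (adjusted p = 8.57e-08). Of 27 initiation genes 2 were higher over the cerebellum and 3 over the spinal cord, with medians of 0.30 and 0.49. Of 10 nascent chain factors, which meet the protein as it leaves the ribosome, 1 was higher over the cerebellum and 3 over the spinal cord. The ribosome-bound scaffold gene rack1 rose by 1.03 ± 0.121 over the cerebellum (adjusted p = 3.06e-07). Of 22 genes that regulate ribosomal protein messages through mTOR and related routes, 1 was higher and 8 were lower in the ganglion over the cerebellum, with a median of -0.51. After correction for gene length the medians over the spinal cord were 0.30 for ribosomal RNA processing, 0.13 for RNA polymerase I, 0.36 for elongation, 0.37 for initiation, 0.35 for nascent chain factors and 0.07 for the regulators, where the members were at 0.45 and all genes at 0.09. Over the cerebellum they were -0.36, -0.79, 0.50, -0.04, -0.14 and -0.42 in that order of lists, where the members were at 0.44 and all genes at 0.07. Among the regulators, pdcd4, an inhibitor of the initiation helicase, fell by 1.71 ± 0.176 against the cerebellum (adjusted p = 5.24e-08) and by 1.31 ± 0.175 against the spinal cord (adjusted p = 3.68e-06).

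Marker genes of other cells differed between the tissues too. Summed Schwann cell and myelin markers, 7 of 10 found, were at 5094 to 22547 CPM in the ganglion, 2520 to 4515 in the spinal cord and 128 to 226 in the cerebellum, and fibroblast markers, 7 of 13 found, at 556 to 1876 in the ganglion, 318 to 478 in the spinal cord and 33.1 to 51.5 CPM in the cerebellum. Leukocyte markers, 5 of 11 found, were at 3287 to 12793 CPM in the ganglion, 2935 to 5997 in the spinal cord and 561 to 1668 in the cerebellum. The neuron markers, 6 of 11 found, were at 1198 to 2012 CPM in the ganglion, 1156 to 1863 in the spinal cord and 1493 to 2069 in the cerebellum. Single markers did not all go 1 way. By the 2-fold rule 3 neuron markers were higher and 2 lower in the ganglion over the cerebellum, where all genes gave 29.6% and 22.3%. Over the spinal cord 0 were higher and 2 lower, where all genes gave 14.5% and 17.3%. In the spinal cord over the cerebellum 3 were higher and 2 lower, where all genes gave 28.9% and 16.3%. Of the fibroblast markers 5 were higher and 2 lower in the ganglion over the spinal cord. Schwann, fibroblast and leukocyte markers were lowest in the cerebellum. Cycling-cell markers were at 30.0 to 188 CPM in the ganglion, 41.6 to 173 in the spinal cord and 93.8 to 388 in the cerebellum, and 10 of 13 were lower in the ganglion over the cerebellum. Endothelial markers, 4 of 9 found, were at 65.3 to 109 CPM in the ganglion, 99.7 to 127 in the spinal cord and 29.2 to 44.0 in the cerebellum. The 1 erythrocyte marker found of 8 was at 33.0 to 465 CPM in the ganglion, 32.9 to 60.8 in the spinal cord and 4.64 to 17.98 in the cerebellum. Of the leukocyte markers found, 1 was at 0 in the spinal cord. The part of these cells in the members' levels was not tested.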

How the data were processed

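The authors deposited, per the file headers, a raw count and a TPM value for each gene in each library. The ratio of count to TPM implied the same length for a gene in all libraries (relative SD at most 5.54e-15). The submitters' processing notes name Subread 2.0.1, featureCounts, STAR 2.7.7a, Trimmomatic 0.39 and CASAVA 1.8.2. Genome build, annotation, strand setting and the handling of reads shared by gene copies: not given in the sources used here. The library kit does not mark strand. Sequences were not used here.

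Groups came from the labels. Tests were run in R 4.3.3 (DESeq2 1.42.0, edgeR 4.0.16, limma 3.58.1) and tables and figures made in Python 3.11.15 (pandas 2.3.3, matplotlib 3.10.9). The deposited counts were filtered with filterByExpr, scaled by TMM and fitted by edgeR's quasi-likelihood method to all 18 libraries with tissue as the only term, with 15 residual degrees of freedom, with Benjamini-Hochberg adjustment over 20691 genes. CPM are counts relative to the scaled library size. Unless TPM is named, statements that the libraries of a gene did or did not overlap refer to CPM. The approximate SE is the absolute log2 fold change over the square root of the F statistic. The fit against the median member used the median ratio of members as scaling. Limma was run on log2(TPM + 1) for 20294 genes of at least 1 TPM in 6 libraries. The length-corrected fit, added after the data were seen, took out each library's median deviation in 50 length bins of genes that are not members. Shares over all genes are not given here for counts at an unadjusted p or by DESeq2. The scripts were tested on simulated data.

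Members and lists were chosen with earlier results of these data known. Named members are the 4 highest and 4 lowest changes per comparison, all called against the median member, the 5 highest and 5 lowest mean TPM, paralogues, and a set of members with a stated role. From the other lists, genes are drawn from the 3 largest called changes at an average log2 CPM of 1 or more, and the most abundant uncalled one. The tissue markers were chosen after the data were seen.

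The labels number the libraries from 1 to 6 in each tissue without saying that a number is a fish. After tissue means were removed, libraries with the same number correlated across genes. The range was 0.138 to 0.434 for ganglion with spinal cord and 0.259 to 0.452 for spinal cord with cerebellum. Between ganglion and cerebellum it was 0.0444 to 0.321, above 0.1 in 4 of 6. Pairing the spinal cord by number with both other tissues also pairs the ganglion with the cerebellum. Correlations between libraries of different number are not given here, so these values cannot show that a number is a fish. The pairing is an assumption taken from the data. The main fits did not use it, and the number entered as a block only in an alternative fit. No library was a copy of another (lowest chi-square per degree of freedom 10.995). Where the labels do not separate fish, p-values measure the spread between these libraries. Some results are not reported here.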

Additional observations from a re-analysis of the deposited data

Results flagged for a closer look

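The level of rpl3l in ganglion replicate 1 was far from the other ganglion libraries, at 43.8 CPM against 2.39 to 8.59, and its gap to the next library was 0.850 of the whole range, past the 95% limit of Dixon's test for 6 samples. In cerebellum replicate 5, rpsa was at 141 CPM, with a gap of 0.641 of the range of the cerebellum libraries, 95.5 to 141. Groups of 6 libraries were checked for 96 combinations of a measure and a tissue, 2 were past the limit, and chance alone puts about 1 in 20 past it.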

How the results depend on the processing

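The count of members past 2-fold and the median log2 fold change depended on the scale. With 42 higher in the ganglion over the cerebellum, the adjusted p alone gave 66, log2(TPM + 1) gave 1 and length correction 4, and the median of 1.08 came to 0.39 by TPM and 0.44 by length correction. For ganglion over spinal cord, 36 became 66, 3 and 0 under the same alternatives, and the median of 1.01 became 0.58 and 0.45. For spinal cord over cerebellum, 2 became 6 by the adjusted p alone, and the median of 0.06 was -0.15 by TPM. Leaving out 1 replicate number at a time gave 33 to 45 (33 without replicate 1), 28 to 46 (28 without replicate 6) and 2 to 3 members in the 3 comparisons, and medians of 1.00 to 1.10, 0.97 to 1.10 and -0.05 to 0.12. TMM against DESeq2's size factors, DESeq2 itself, no filter and leaving out ganglion replicates 2 and 5 kept each count within 1.5 times. The replicate block gave 42, 35 and 2, with rps9 lost and rps15a gained over the spinal cord, and it changed no other call of a named member in that fit.

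Against the median member, 7 in the ganglion over the cerebellum became 22 by the adjusted p alone, 4 without ganglion replicate 5, 4 to 9 on leaving out a replicate number and 6 with the block, which left rpl3l at 0.81 and not past the threshold. For ganglion over spinal cord 3 became 8 by the adjusted p alone, 1 with the block, 1 without ganglion replicate 5, 1 without ganglion replicate 1 and spinal cord replicates 1, 3 and 5, and 1 to 3 on leaving out a replicate number. For spinal cord over cerebellum 3 became 10 by the adjusted p alone, 4 with the block, which added rpl22l1 at -0.55, and 3 to 4 on leaving out a replicate number. Of all 20691 genes tested, 15767, 14353 and 12851 passed the adjusted p alone on this scale in the 3 comparisons, in the same order. In the ganglion comparisons these counts also hold the shift of the median gene. The large to small subunit ratio was 1.96, 2.01 and 1.98 by counts in ganglion, spinal cord and cerebellum. The mean spinal cord share of TPM was 6.24% without the most abundant genes and 5.30% with them. No call of a named member reversed under any alternative. Among 87 values of named members, the sign differed in 7 by TPM, 3 by length correction (rpl24, rps9 and rps23 over the cerebellum) and 0 to 2 in each setting that left out libraries, none of them past the threshold in the first place.

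Limits: 14 textbook proteins were not analysed here, gene copies can share reads, and counting error matters for rps15a and rpl3l. The cause of the length trend and of the changes under other scalings was not tested.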

Other observations

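Genes for other large protein machines were measured beside the members. Of 71 tested mitochondrial ribosomal protein genes, which encode the separate ribosome of mitochondria, 41 were higher and 0 lower in the ganglion over the spinal cord. In the ganglion over the cerebellum 8 were higher and 1 lower, and in the spinal cord over the cerebellum 8 were lower. By the same 2-fold rule all genes gave 14.5% higher and 17.3% lower, 29.6% and 22.3%, and 28.9% and 16.3% in those comparisons. The median log2 fold changes of these mitochondrial genes were 1.08, 0.46 and -0.58 in those comparisons, and 0.59, -0.07 and -0.65 after length correction. With that correction 12 were higher and 1 lower in the ganglion over the spinal cord, where all genes gave 14.5% higher and 15.4% lower. In the ganglion over the cerebellum 3 were then higher and 1 lower, where all genes gave 28.9% and 21.6%. Of 32 proteasome genes, 24 were higher in the ganglion over the spinal cord and 18 over the cerebellum, with medians of 1.37 and 1.06. After length correction 15 and 6 were higher, with medians of 0.97 and 0.67. In the spinal cord over the cerebellum the proteasome median was -0.27. The mitochondrial set thus lay lowest in the spinal cord, where the cytosolic members were near the cerebellum level.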
